A study of Mus musculus with 47 samples.

Results

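Chemokines are small secreted proteins that recruit leukocytes, and the 10 chemokine genes described here were Cxcl9, Cxcl10, Ccl5, Ccl3, Ccl4, Ccl2, Ccl7, Ccl12, Cxcl1 and Cxcl2. They were chosen by name, as well-studied attractants of leukocytes, and with earlier results of these data known. They make up 10 of the 56748 genes in the deposited count matrix. Their Ensembl identifiers were paired with symbols through the mouse GENCODE annotation, which gave each of the 10 genes 1 row. The study edited the mitochondrial DNA of B78-D14 mouse amelanotic melanoma cells, a derivative of the B16 line that lacks Cdkn2a, with a base editor that introduces truncating G>A mutations in Mt-Nd5, a complex I subunit. Bulk RNA-seq was made from cultured cells and from pieces of the subcutaneous tumors that such cells formed.

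In culture, 4 samples of wild-type control cells were compared with 4 samples of cells that carried m.11,944G>A, named for a mutation share (heteroplasmy) of 60%. Among tumors, 4 wild-type control tumors (001 to 004) were compared with 7 tumors of m.12,436G>A cells at 40% and 7 at 60%. The percentages name the transfected cell populations, which are not single clones, and the host cells of a tumor carried no edit. The labels give no treatment for any of these samples and no age for the mice. The study's methods describe grafts in immunocompetent C57BL/6 males. The tumors and cultures do not share a mutation, so a tumor of the m.12,436 line has no cultured counterpart among the 26 samples used. The labels do not say that samples of a group came from separate mice or cultures, so the p-values measure the spread between these samples. Tumors with the same replicate number did not deviate together, whereas cultures did.

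Cxcl9 and Cxcl10 bind CXCR3, the receptor of activated T cells and NK cells, and both are classical interferon targets. Ccl5, Ccl3 and Ccl4 attract T cells and macrophages, Ccl2, Ccl7 and Ccl12 bind CCR2 on inflammatory monocytes, and Cxcl1 and Cxcl2 bind CXCR2 on neutrophils. In tumors these genes can be transcribed by malignant cells, by stroma or by the infiltrating leukocytes themselves.

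The libraries held between 16475735 and 36173502 counts each. Values below are counts per 1000000 (CPM) with library sizes scaled by the trimmed mean of M-values, fold changes are log2 fold changes of edgeR's quasi-likelihood test, and a gene was called where the Benjamini-Hochberg adjusted p over all genes tested was under 0.1, the threshold used in the study. The leukocyte gene Ptprc had 0 to 1 counts in each of the 8 cultures and 1334 to 4410 in each of the 18 tumors. The summed counts of 7 neutrophil markers ran from 0 to 3 in cultures and from 234 to 1046 in tumors, and those of 9 T cell markers from 8 to 47 and from 252 to 2197. Pigment-lineage markers were scarce in the cultures of this amelanotic line, with Tyr at 0, Tyrp1 at 0 to 1 and Dct at 0 to 10 counts, while Mitf had 194 to 630. In a bulk sample, fewer cells of a type and less RNA per cell cannot be told apart.

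The genes lie in 4 clusters on 2 chromosomes (GRCm39). Cxcl1 (chr5:91039094-91040974, plus strand) and Cxcl2 (chr5:91051730-91053797, plus strand) are neighbours, as are Cxcl9 (chr5:92469206-92475945, minus strand) and Cxcl10 (chr5:92494497-92496748, minus strand). Ccl2 (chr11:81926397-81928279), Ccl7 (chr11:81936532-81938351) and Ccl12 (chr11:81992645-81994466) follow each other on the plus strand. The remaining group is Ccl5 (chr11:83416602-83425942, minus strand), Ccl3 (chr11:83538670-83540191, minus strand) and Ccl4 (chr11:83553383-83555509, plus strand). Cxcl10 overlaps Art3, and Ccl5 and Ccl3 each overlap a long non-coding RNA gene, on the opposite strand in each case. The sources used here do not state whether counting used strand, so reads of these 3 genes and their antisense partners could not be told apart.

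RefSeq promoter windows (250 bases before to 50 after the start, from the GRCm38.p6 table, placed in GRCm39 by exact match) were found for 6 of the 10 genes: Cxcl9, Cxcl10, Ccl12, Ccl3, Cxcl1 and Cxcl2. Stretches of 3 are shown because their letters hold the motifs searched for and because Cxcl1 and Cxcl2 later moved together across tumors. Each is written 5′ to 3′ on the strand of its gene, with the matches in capitals. None of the 3 stretches overlaps an exon, and the Cxcl10 stretch lies in an intron of Art3. The NF-kB motif GGGNNNTTCC, read on both strands, has overlapping matches on the 2 strands at GGGAATTTCCC. The interferon-stimulated response element GAAANNGAAA is the first block of capitals in Cxcl10, and all other capitals are NF-kB matches.
Cxcl1, chr5:91038954-91039073, bases -150 to -31 from the start: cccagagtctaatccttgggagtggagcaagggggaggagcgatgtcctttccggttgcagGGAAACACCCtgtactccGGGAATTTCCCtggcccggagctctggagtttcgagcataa
Cxcl2, chr5:91051608-91051727, bases -150 to -31 from the start: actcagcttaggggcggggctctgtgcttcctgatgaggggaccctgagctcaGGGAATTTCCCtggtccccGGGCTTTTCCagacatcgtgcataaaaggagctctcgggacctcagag
Cxcl10, chr5:92496829-92496978, minus strand, bases -230 to -81 from the start: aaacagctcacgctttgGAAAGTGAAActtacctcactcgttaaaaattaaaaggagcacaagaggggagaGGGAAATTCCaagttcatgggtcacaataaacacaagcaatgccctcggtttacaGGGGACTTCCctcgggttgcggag

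The NF-kB motif was present in 3 of the 6 windows, those of Cxcl1, Cxcl2 and Cxcl10, and in 5.56% of all 32851 promoter windows of the same length. The longest run shared by the upstream parts of Cxcl1 and Cxcl2 was 14 bases, gggaatttccctgg, which contains that motif and lies at -71 to -58 in Cxcl1 and at -97 to -84 in Cxcl2. GAAANNGAAA was found in the Cxcl10 window alone among the 6, against 3.44% of all windows. The gamma-activated motif TTCNNNGAA was in 0 of the 6 and in 8.3% of all windows, and TATAAA was in 2, Cxcl9 and Ccl12, against 13.6%. A match is a description of these letters and not a binding site.

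The cultured melanoma cells held transcripts of Ccl2, Ccl7 and Cxcl1 in all 8 samples, and Cxcl1 was above Ccl7 in cultures 1 and 2 of both genotypes. By the rule that a gene counts as made where each of the 4 control cultures has at least 1 CPM, and as at the floor where no culture has more than 3 counts, 2 genes were made, 2 were low and 6 were at the floor. Cxcl9, Ccl12, Ccl3 and Ccl4 had 0 counts in each of the 8 cultures. With library sizes unscaled and counting error only, this allows at most 0.0829 to 0.119 CPM in a culture. Cxcl2 had 1 count in 1 culture, and Ccl5 had 0 to 2 counts in a culture. Cxcl10 was low, with 0 to 7 counts in a culture. Cxcl1 had 20 to 162 counts and was classed as low because control cultures 3 and 4 lay below 1 CPM, at 0.597 and 0.949.

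**Figure D1:**
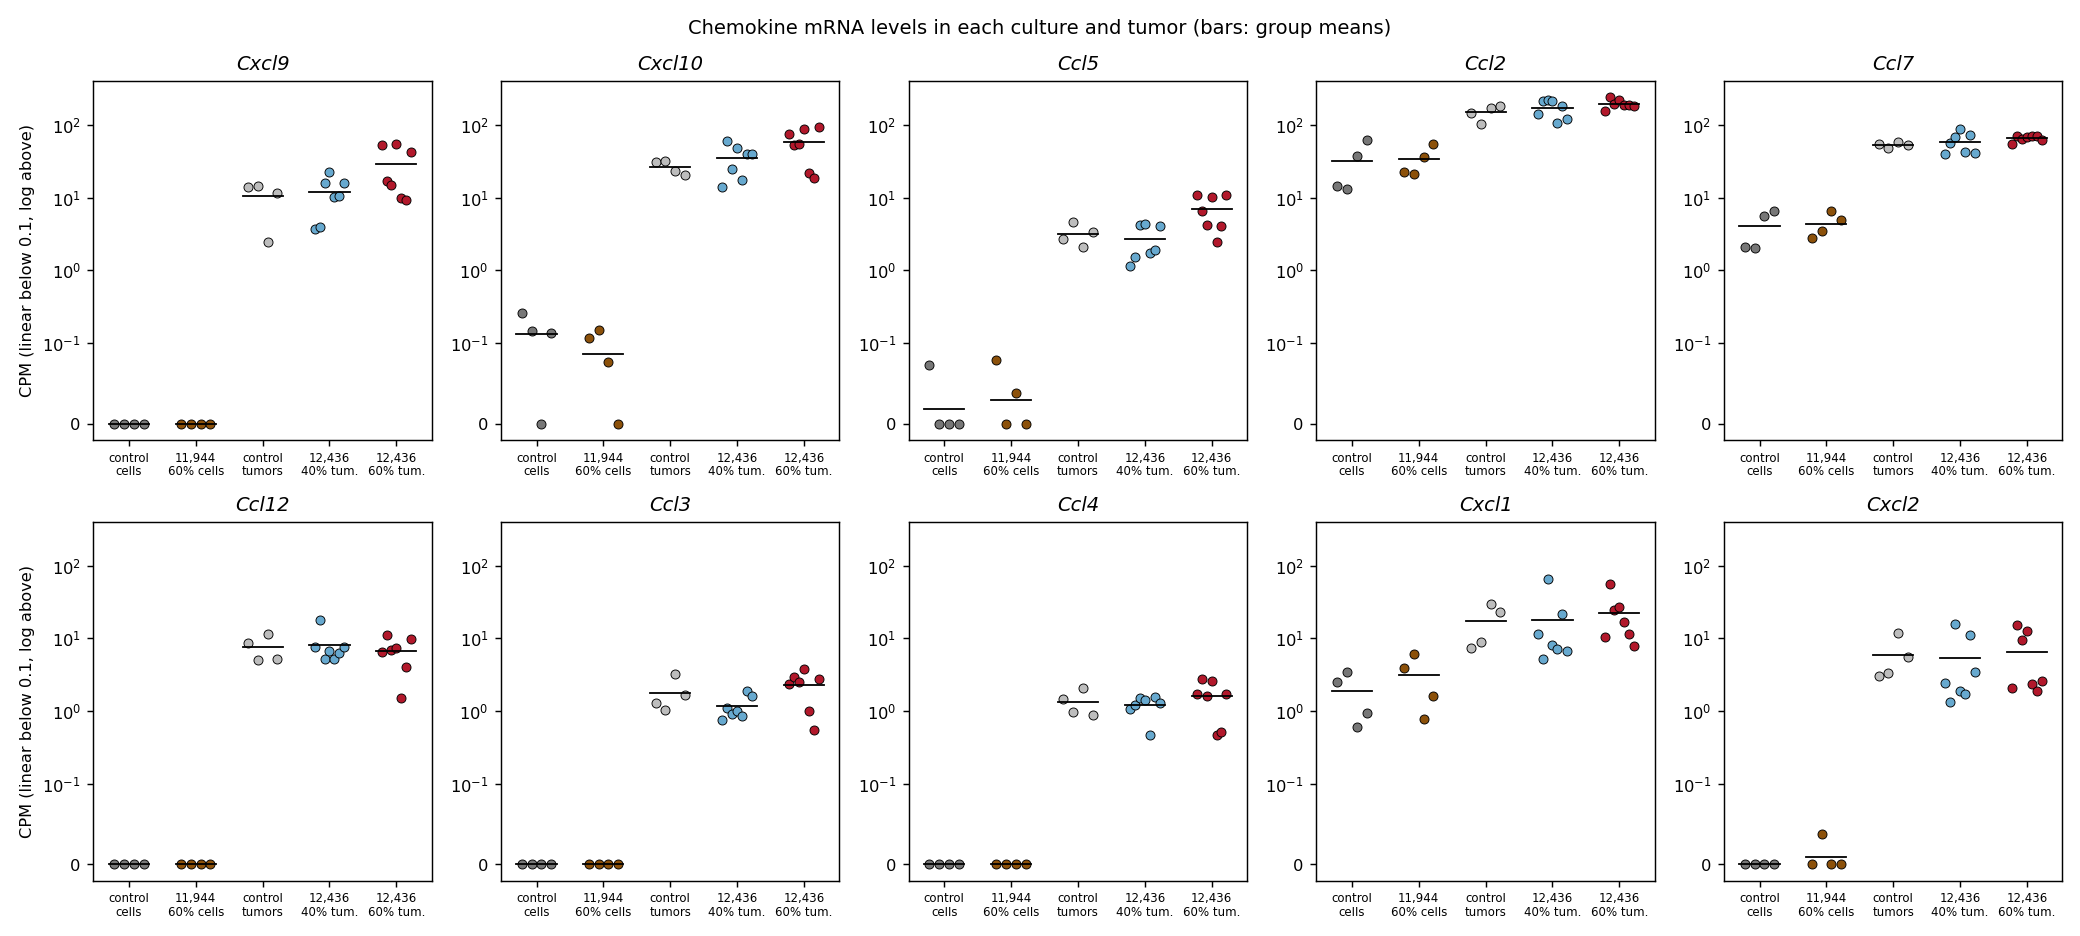
Level of each of the 10 chemokine genes in every sample, in CPM on an axis that is linear below 0.1 and logarithmic above it, for control cells, m.11,944 60% cells, control tumors, m.12,436 40% tumors and m.12,436 60% tumors. Points are samples and bars are group means. Ccl2, Ccl7 and Cxcl1 are seen in all 8 cultures, while Cxcl9, Ccl12, Ccl3 and Ccl4 are at 0 there and are seen in all 18 tumors.

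Ccl2, the main attractant of CCR2-bearing monocytes, was at 14.5, 13.3, 37.1 and 61.0 CPM in control cultures 1 to 4. In m.11,944 60% cultures 1 to 4 it was at 22.5, 21.0, 35.5 and 54.4 CPM. The 2 groups overlapped, and in both of them cultures 3 and 4 were above cultures 1 and 2. Ccl7, a neighbour of Ccl2 with the same receptor, was at 2.12, 2.00, 5.51 and 6.58 CPM in control cultures and at 2.74, 3.50, 6.44 and 4.87 CPM in m.11,944 60% cultures. It too was higher in cultures 3 and 4 of either group than in cultures 1 and 2. Cxcl1, a neutrophil attractant, was at 2.52, 3.42, 0.597 and 0.949 CPM in control cultures and at 3.92, 6.09, 0.767 and 1.61 CPM in m.11,944 60% cultures. Its order ran the other way, with cultures 1 and 2 of either group above cultures 3 and 4.

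Averaged over both genotypes, cultures numbered 3 and 4 held 47.0 CPM of Ccl2 against 17.8 CPM in those numbered 1 and 2, a ratio of 2.64. The same ratio was 2.26 for Ccl7, whereas Cxcl1 was 4.06 times higher in cultures 1 and 2. Over all genes, same-numbered cultures of the 2 genotypes deviated together, with r between 0.718 and 0.832 for the 4 pairs, so the number carried a shared source of variation that the labels do not name.

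**Figure D2:**
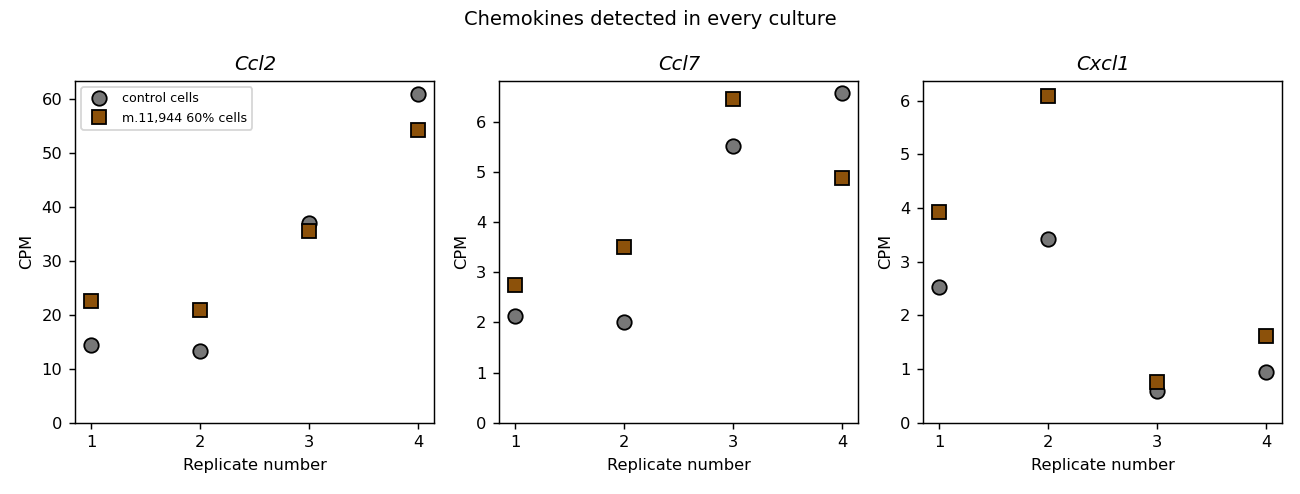
CPM of Ccl2, Ccl7 and Cxcl1 against the replicate number of the culture, with control cells as circles and m.11,944 60% cells as squares, each point 1 culture. Cxcl1 is higher in the mutant culture at each of the 4 numbers, and the vertical spread between numbers is wider than that between genotypes.

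In the comparison of m.11,944 60% with control cells, 3 of the 10 genes passed the filter on low counts. The main fit took no account of the replicate number. It called 0 of the 3, against 0.0387% of the 12930 genes tested. None of the 3 had an unadjusted p under 0.05, and limma-voom and DESeq2 also called 0 of them. Ccl2 had a log2 fold change of 0.09 (SE 0.53), Ccl7 of 0.11 and Cxcl1 of 0.73 (SE 0.73), each with an adjusted p of 1.00. A fit with the replicate number as a block takes account of the deviation that same-numbered cultures share. In it Cxcl1 was called higher in the mutant cells, at a log2 fold change of 0.69 (SE 0.17, adjusted p = 0.0643). Under that block 7.08% of all genes tested were called. The log2 ratio of Cxcl1 within a pair was 0.64, 0.83, 0.36 and 0.77 for numbers 1 to 4, higher in the mutant in 4 of 4 pairs. Ccl2 and Ccl7 were not called with the block, at log2 fold changes of 0.24 (adjusted p = 0.371) and 0.19 (adjusted p = 0.602).

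Each of the 10 genes was higher in control tumors than in control cultures. Of all 15047 genes tested, 65.2% were called in either direction and 35.3% were called higher in the tumors. A gene that is near 0 in culture passes the filter on low counts only through the tumors, so a count of the genes called carries no weight here, and the sizes are given instead. Sizes come first for the 3 genes seen in all 8 cultures. The others were near 0 there, which by itself makes their ratios larger, so no ranking is drawn. Ccl2 rose from 34.1 ± 24.2 to 135 ± 30.7 CPM (SD, n = 4 each), or by 1.98 on the log2 scale (SE 0.47, adjusted p = 0.00522). Ccl7 rose by 3.44 on the log2 scale (SE 0.38, adjusted p = 7.02e-05) and Cxcl1 by 2.94 (SE 0.64, adjusted p = 0.00339).

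Cxcl10, at 15 counts over the control cultures, was higher in control tumors by 7.38 on the log2 scale. Ccl5, with 2 counts over the control cultures and 333 over the control tumors, had a ratio of 195 per count sequenced, with an exact 95% interval of 53.6 to 1619 that covers counting error only. For the 5 genes at 0 in every control culture a lower bound was taken from 3 counts over the group, or 0.0246 CPM with library sizes unscaled. Against it, in unscaled pooled counts, Cxcl9 was at least 415-fold higher in control tumors, Ccl12 at least 313-fold, Cxcl2 at least 253-fold, Ccl3 at least 75.0-fold and Ccl4 at least 55.5-fold. For Ccl7 the ratio was 12.9 in unscaled pooled counts and 10.8 in the scaled fit, so scaling would lower these bounds. Growth in a mouse, the presence of host cells and a separate preparation all distinguish tumors from cultures and cannot be told apart. The summed counts of 10 macrophage markers ran from 258 to 565 in cultures and from 20793 to 54340 in tumors, with 4 of the markers at 0 in all cultures and 6 at no more than 3 counts in any. Their part in the chemokine levels was not tested.

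The make-up of the chemokine transcripts is given as shares of the summed counts of the 10 genes. Ccl2, Ccl7 and Cxcl1 together held 98.3 to 100% of the counts of the 10 genes in a culture, and 59.2 to 87.5% in a tumor, with medians of 99.6% and 77.8%. Ccl2 alone had a median share of 79.8% in cultures and 53.2% in tumors, and Cxcl10 had a median share of 11.4% in tumors and 0.299% in cultures.

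Per kilobase of the canonical transcript, and taking the median over the 18 tumors, the order of levels was Ccl2 at 223 CPM per kb, Ccl7 at 73.8, Cxcl10 at 32.5, Cxcl1 at 12.03, Ccl12 at 8.42, Ccl5 at 7.55, Cxcl9 at 4.87, Cxcl2 at 2.85, Ccl4 at 2.08 and Ccl3 at 1.87. Ccl2 was above Ccl7 in 18 of 18 tumors, with a log2 ratio of 1.53 ± 0.21 (SD), and Ccl7 was above Cxcl10 in 17. Lower in the order the neighbours changed places from tumor to tumor, with Ccl12 above Ccl5 in 11 of 18 tumors, Cxcl9 above Cxcl2 in 11 and Ccl4 above Ccl3 in 8. With the length of all annotated exons in place of the canonical transcript, Ccl5 was above Cxcl9 in 4 tumors instead of 16 and Cxcl1 above Ccl12 in 9 instead of 14. Cxcl2 then had the lowest median, at 1.53 CPM per kb.

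The spread between tumors differed widely among the genes. The highest tumor exceeded the lowest 2.35 times for Ccl2 and 2.19 times for Ccl7, the 2 genes made in culture. The same ratio was 5.83 for Ccl4, 6.60 for Cxcl10, 6.84 for Ccl3 and 9.44 for Ccl5. It reached 11.6 for Ccl12, 11.8 for Cxcl2, 12.4 for Cxcl1 and 22.4 for Cxcl9.

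To ask whether the mutation changed the chemokines of the tumor, the tumors at 60% m.12,436 were set against control tumors, and also against those at 40%. All 10 genes passed the filter on low counts. Against control tumors 0 of the 10 were called, where 2.31% of the 16213 genes tested were, and 3 of the 10 (Cxcl9, Cxcl10 and Ccl5) had an unadjusted p under 0.05, as did 16.3% of all genes tested. limma-voom also called 0, while DESeq2 called 1, Ccl5, at an adjusted p of 0.0830, and 6.51% of all genes. The log2 fold change was positive for 9 of the 10, with a median of 0.34, where the median over all genes tested was -0.0025. Against 40% tumors 1 of the 10, Ccl5, was called, and it was higher at 60%, where 1.81% of all genes tested were called and 0.814% were called higher. Again 9 of the 10 were positive, with a median of 0.35. The 2 comparisons share the 60% tumors, so their values do not support each other.

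Cxcl9, a CXCR3 ligand induced by interferon-gamma, was at 13.9, 14.3, 2.43 and 11.6 CPM in control tumors 1 to 4. In the 7 tumors at 40% it ran from 3.73 through a median of 10.6 to 22.6 CPM, and in the 7 at 60% from 9.18 through 16.7 to 54.6 CPM. Replicates 1, 4 and 7 at 60% stood above every other tumor, replicates 5 and 6 lay among the controls, and the groups overlapped. The log2 fold change of 60% against control was 1.45 (SE 0.64, adjusted p = 0.274), from 10.6 ± 5.55 (SD, n = 4) to 28.7 ± 20.5 CPM (SD, n = 7). Against 40% tumors it was 1.29 (SE 0.52, adjusted p = 0.271).

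Cxcl10, the other CXCR3 ligand, was at 30.3, 32.0, 23.1 and 20.3 CPM in control tumors 1 to 4. It ran from 14.0 through 39.6 to 59.1 CPM at 40% and from 18.4 through 54.4 to 92.2 CPM at 60%. Of the tumors at 60%, 5 were above all controls and replicate 6 was below all of them. Cxcl10 had a log2 fold change of 1.11 (SE 0.46, adjusted p = 0.245) against control tumors and 0.72 (SE 0.38, adjusted p = 0.404) against 40% tumors.

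Ccl5, which T cells and NK cells secrete, was at 2.69, 4.63, 2.07 and 3.31 CPM in control tumors 1 to 4. It ran from 1.16 through 1.89 to 4.26 CPM at 40% and from 2.41 through 6.60 to 10.96 CPM at 60%. At 60%, 4 of 7 tumors (replicates 1, 2, 4 and 7) were above every tumor at 40% and every control, and replicates 3, 5 and 6 overlapped with both groups. Ccl5 rose from 2.69 ± 1.41 to 7.05 ± 3.62 CPM (SD, n = 7 each) between 40% and 60%, or by 1.39 on the log2 scale (SE 0.37, adjusted p = 0.0926). Against control tumors the log2 fold change was 1.15 (SE 0.45, adjusted p = 0.212).

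The call of Ccl5 between 40% and 60% lay close to the threshold. It was lost in 8 of the 14 fits that left out 1 tumor, those without 60% replicate 1, 2, 4 or 7 or 40% replicate 1, 2, 5 or 6, with adjusted p between 0.0548 and 0.183 over the 14. It was also lost with no filter on low counts (adjusted p = 0.231), with the replicate number as a block (adjusted p = 0.123), with only the 2 groups compared (adjusted p = 0.121), at a threshold of 0.05 and with Ptprc as a covariate, where the log2 fold change was 0.38 (adjusted p = 0.678).

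Ccl3 and Ccl4, a pair of related attractants, are made by macrophages and lymphocytes and had the lowest median levels of the 10 per kilobase of the canonical transcript. Ccl3 was at 1.30, 1.03, 3.19 and 1.63 CPM in control tumors 1 to 4, ran from 0.746 through 1.01 to 1.86 CPM at 40% and from 0.550 through 2.51 to 3.76 CPM at 60%. Of the tumors at 60%, 5 were above all those at 40% and replicate 6 was below all of them. Ccl3 had a log2 fold change of 0.95 (SE 0.36, adjusted p = 0.223) against 40% tumors and 0.32 (SE 0.41, adjusted p = 0.731) against control tumors. Without replicate 6 at 60% it passed the threshold against 40% tumors, at 1.13 (adjusted p = 0.0855), as did 329 of all genes tested. Ccl4 was at 1.44, 0.965, 2.04 and 0.886 CPM in control tumors, ran from 0.465 through 1.29 to 1.54 CPM at 40% and from 0.472 through 1.70 to 2.71 CPM at 60%. The groups overlapped, and its log2 fold change was 0.42 (SE 0.35, adjusted p = 0.630) against 40% and 0.27 (SE 0.41, adjusted p = 0.781) against control tumors.

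Of the CCR2 ligands, Ccl2 was at 147, 102, 169 and 180 CPM in control tumors 1 to 4, ran from 107 through 179 to 221 CPM at 40% and from 153 through 188 to 239 CPM at 60%. At 60%, 6 of 7 tumors were above every control, and replicate 1 was the exception. Against control its log2 fold change was 0.38 (SE 0.20, adjusted p = 0.350), and it was 0.19 (SE 0.17, adjusted p = 0.659) against 40% tumors. Ccl7 was at 53.8, 47.3, 57.2 and 53.4 CPM in control tumors, ran from 40.2 through 55.7 to 88.3 CPM at 40% and from 55.0 through 68.2 to 70.5 CPM at 60%. As for Ccl2, 6 of 7 tumors at 60% were above every control and replicate 1 was not, while the tumors at 40% spanned the range of both groups. The log2 fold change of Ccl7 against control was 0.30 (SE 0.18, adjusted p = 0.407). In a fit of the 60% and control tumors alone, without the wider spread of the 40% tumors, it was 0.31 and passed the threshold (adjusted p = 0.0457), where 5.97% of all genes tested did.

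Ccl12, a further CCR2 ligand that was absent from the cultures, did not share that pattern. It was at 8.53, 4.99, 11.6 and 5.13 CPM in control tumors 1 to 4, ran from 5.12 through 6.69 to 17.6 CPM at 40% and from 1.52 through 6.83 to 11.2 CPM at 60%. The groups overlapped throughout, and 60% replicate 5 was the lowest of all 18 tumors. The log2 fold change was -0.17 (SE 0.42, adjusted p = 0.883) against control and -0.25 (SE 0.36, adjusted p = 0.815) against 40% tumors.

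The CXCR2 ligands had the largest SD relative to the mean within each group of tumors. Cxcl1 was at 7.41, 8.79, 29.5 and 23.0 CPM in control tumors 1 to 4, ran from 5.18 through 8.05 to 64.5 CPM at 40% and from 7.75 through 16.9 to 55.6 CPM at 60%. Single tumors set the top of both mutant groups, replicate 3 at 40% and replicate 2 at 60%. Cxcl2 was at 3.01, 3.33, 11.9 and 5.46 CPM in control tumors, ran from 1.31 through 2.45 to 15.5 CPM at 40% and from 1.86 through 2.58 to 15.0 CPM at 60%. The same tumors were the highest of their groups. The log2 fold change of 60% against control was 0.35 (SE 0.71, adjusted p = 0.848) for Cxcl1, and 0.13 (SE 0.77, adjusted p = 0.954) for Cxcl2.

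Between 40% and control tumors 0 of the 10 genes were called, where 0.00% of all genes tested were, and 825 genes but none of the 10 had an unadjusted p under 0.05. DESeq2 called 5 genes, and it and limma-voom called 0 of the 10. The log2 fold changes ran from -0.63 for Ccl3 (SE 0.41) to 0.39 for Cxcl10 (SE 0.45). A trend across 0, 40 and 60% also called 0 of the 10, against 1.14% of all genes. The steepest slopes per 60 percentage points of heteroplasmy were those of Cxcl9 at 1.44 (adjusted p = 0.279), Ccl5 at 1.14 (adjusted p = 0.275) and Cxcl10 at 1.10 (adjusted p = 0.244), which were the 3 with an unadjusted p under 0.05 (15.4% of all genes tested), and limma-voom and DESeq2 called 0.

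Of 27 other chemokines 20 could be tested, and 0 were called in 60% against control or against 40% tumors, with 5 and 4 at an unadjusted p under 0.05, where 16.3% and 14.1% of all genes tested were. Cxcl11, a further CXCR3 ligand, was at 1.28 ± 0.901 CPM at 60% and 0.303 ± 0.115 CPM in control tumors (log2 fold change 2.05, adjusted p = 0.119). Ppbp, a platelet chemokine, was at 1.20 ± 0.805 against 7.10 ± 8.57 CPM (log2 fold change -2.55, adjusted p = 0.130).

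Genes that relay interferon to Cxcl9 and Cxcl10 were read from a list of 13, of which 12 were tested. In 60% against control tumors 12 of 12 had a positive log2 fold change, with a median of 0.21, and 0 were called. Those with the smallest p were Stat2 at 0.78 (adjusted p = 0.133) and Irf1, an interferon-induced transcription factor, at 0.47 (adjusted p = 0.134). Against 40% tumors 1 of the 12, Irf1, was called higher, where 0.814% of all genes tested were. Irf1 rose from 101 ± 15.0 to 140 ± 28.5 CPM (SD, n = 7 each, log2 fold change 0.47, adjusted p = 0.0887). Of the 14 genes of TNF, IL-1 and NF-kB signalling, which drives Cxcl1, Cxcl2 and Ccl2 in many cells, 0 were called in either comparison. Against control tumors 11 of the 14 were positive, with a median of 0.21, the same as for the interferon list, and against 40% tumors 11 were positive, with a median of 0.21 where the interferon list had 0.17. Tlr2 was the nearest, at log2 fold changes of 0.53 against control (adjusted p = 0.130) and 0.49 against 40% tumors (adjusted p = 0.104).

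In control tumors against control cultures, 9 of 11 interferon inputs tested were called higher in the tumors, among them Stat2 by 3.76 and Irf9 by 3.61 on the log2 scale, where 35.3% of all genes tested were. Of 12 TNF, IL-1 and NF-kB genes tested 11 were called higher and 1 lower in the tumors, against 35.3% and 29.9% of all genes. Some of them passed the filter on low counts only through the tumors, so these counts carry no weight. The cytokine genes Il1b and Tnf were at 0 in every control culture, and at 12.01 ± 1.55 and 2.42 ± 0.492 CPM in control tumors (SD, n = 4).

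Across the 18 tumors, with each group's mean subtracted, the 10 genes were compared in pairs. Pearson's r of log2 CPM was taken for all 45 pairs, with p from 100000 permutations of tumors within their groups and Benjamini-Hochberg adjustment over the 45. By Pearson's r 13 pairs passed an adjusted p of 0.1, and 11 of these also passed by Spearman's rho. All tumors share the tissue and its mixture of cells, and a correlation between genes does not say which cells made them.

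Cxcl1 and Cxcl2 were correlated at r = 0.90 and rho = 0.79 (n = 18 tumors, permutation p = 1e-05 for r, the smallest these permutations can give, adjusted p = 0.000225), and at 0.85 without the 2 tumors farthest from the median of Cxcl1. Within the 7 tumors at 40% r was 0.92 and within those at 60% it was 0.89. Cxcl9 and Ccl5 reached r = 0.88 and rho = 0.89 (adjusted permutation p = 0.000225), 0.88 without the 2 farthest tumors, 0.91 at 40% and 0.93 at 60%. Although Cxcl9 and Ccl5 lie on different chromosomes and bind different receptors, the value was close to that of the neighbours Cxcl1 and Cxcl2.

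Ccl3 and Ccl4 had r = 0.82 and rho = 0.82 (adjusted permutation p = 0.00915), 0.76 without the 2 farthest tumors, and r was 0.47 at 40% and 0.95 at 60%. Ccl2 and Ccl7 had r = 0.78 and rho = 0.77 (adjusted permutation p = 0.0193), 0.76 without the 2 farthest tumors, 0.83 at 40% and 0.78 at 60%. Ccl12 had r = 0.28 with its neighbour Ccl2 and -0.05 with Ccl7, and correlated with Ccl4 at 0.73 (rho = 0.65, adjusted permutation p = 0.0193, 0.73 without the 2 farthest tumors). That last relation was at 0.21 within the 40% tumors and at 0.88 within the 60% tumors. Between Cxcl9 and Cxcl1 no relation passed the threshold, at r = -0.11 (rho = -0.20, adjusted permutation p = 0.809).

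**Figure D3:**
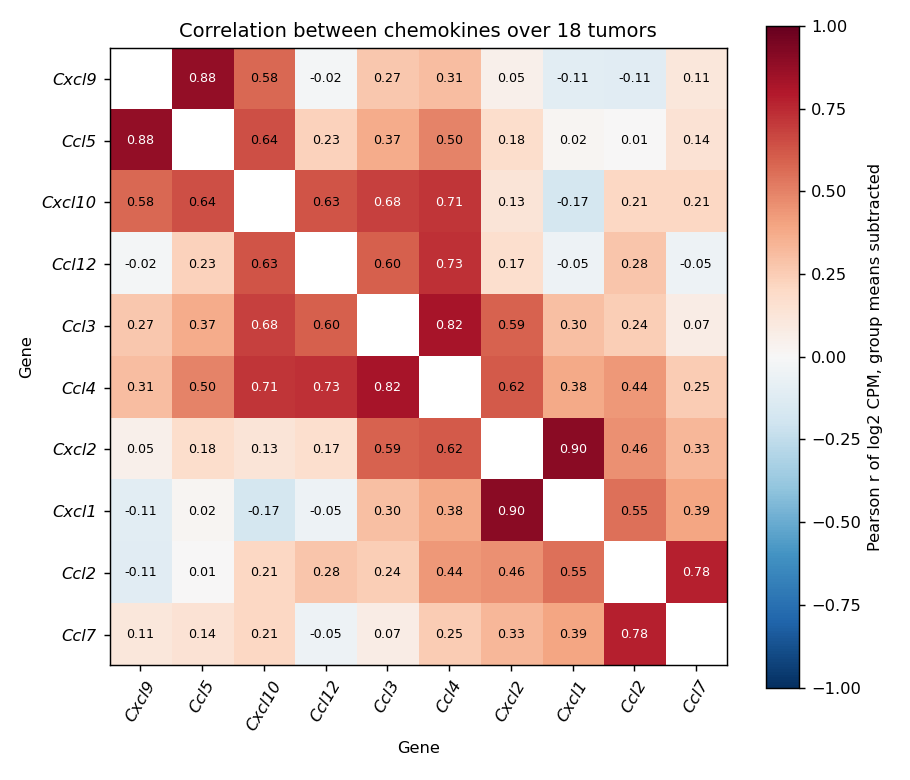
Pearson r of log2 CPM for each pair of the 10 chemokine genes over 18 tumors with group means subtracted, red for positive and blue for negative, with the value in each square. The darkest squares are Cxcl1 with Cxcl2 (0.90), Cxcl9 with Ccl5 (0.88), Ccl3 with Ccl4 (0.82) and Ccl2 with Ccl7 (0.78), and Ccl2 and Ccl7 are pale against Cxcl9, Ccl5 and Ccl12.

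The same measure was taken between each of the 10 genes and the mean log2 CPM of 11 marker lists, 110 relations in all. After adjustment over the 110, 23 passed by Pearson's r and 20 of these also by Spearman's rho. Cxcl2 followed the 5 neutrophil markers tested, at r = 0.89 and rho = 0.73 (n = 18, adjusted permutation p = 0.00234), 0.84 without the 2 tumors farthest in the marker level, 0.90 at 40% and 0.95 at 60%. Ccl3 and Ccl4 followed them too, at r = 0.68 and 0.66 and rho = 0.70 and 0.71 (adjusted permutation p = 0.0152 and 0.0220 for r). Cxcl1 passed by r alone, at r = 0.72 (adjusted permutation p = 0.0164) and rho = 0.50. Cxcl9 followed the 9 T cell markers at r = 0.87 and rho = 0.87 (adjusted permutation p = 0.000825), 0.86 without the 2 farthest, 0.93 at 40% and 0.91 at 60%. The relation was not particular to T cell markers. Cxcl9 also followed Ptprc at r = 0.88 and rho = 0.89, and the NK cell markers at 0.83 and 0.81. With the dendritic cell markers it was at 0.68 and 0.71. Ccl5 followed Ptprc at r = 0.85 and rho = 0.86 (adjusted permutation p = 0.000733), 0.84 without the 2 farthest, and followed the 6 NK cell markers at 0.86 and the T cell markers at 0.85.

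Cxcl9 and Ccl5 ran against the 5 endothelial markers, at r = -0.86 and -0.82. For Cxcl9 rho was -0.89 and r was -0.86 without the 2 farthest tumors, -0.93 at 40% and -0.80 at 60% (adjusted permutation p = 0.00183). Ccl12 followed the 10 macrophage markers at r = 0.84 and rho = 0.73 (adjusted permutation p = 0.00385), and r fell to 0.64 without the 2 farthest tumors and was 0.45 at 40% and 0.99 at 60%. Cxcl10 followed the NK cell markers at r = 0.79, with 0.71 without the 2 farthest tumors. Its r was 0.69 with Ptprc and 0.68 with the T cell markers and with the monocyte markers. For Ccl2 and Ccl7, 0 of the 22 relations passed, and Ccl2 was at r = -0.08 with the macrophage markers.

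**Figure D4:**
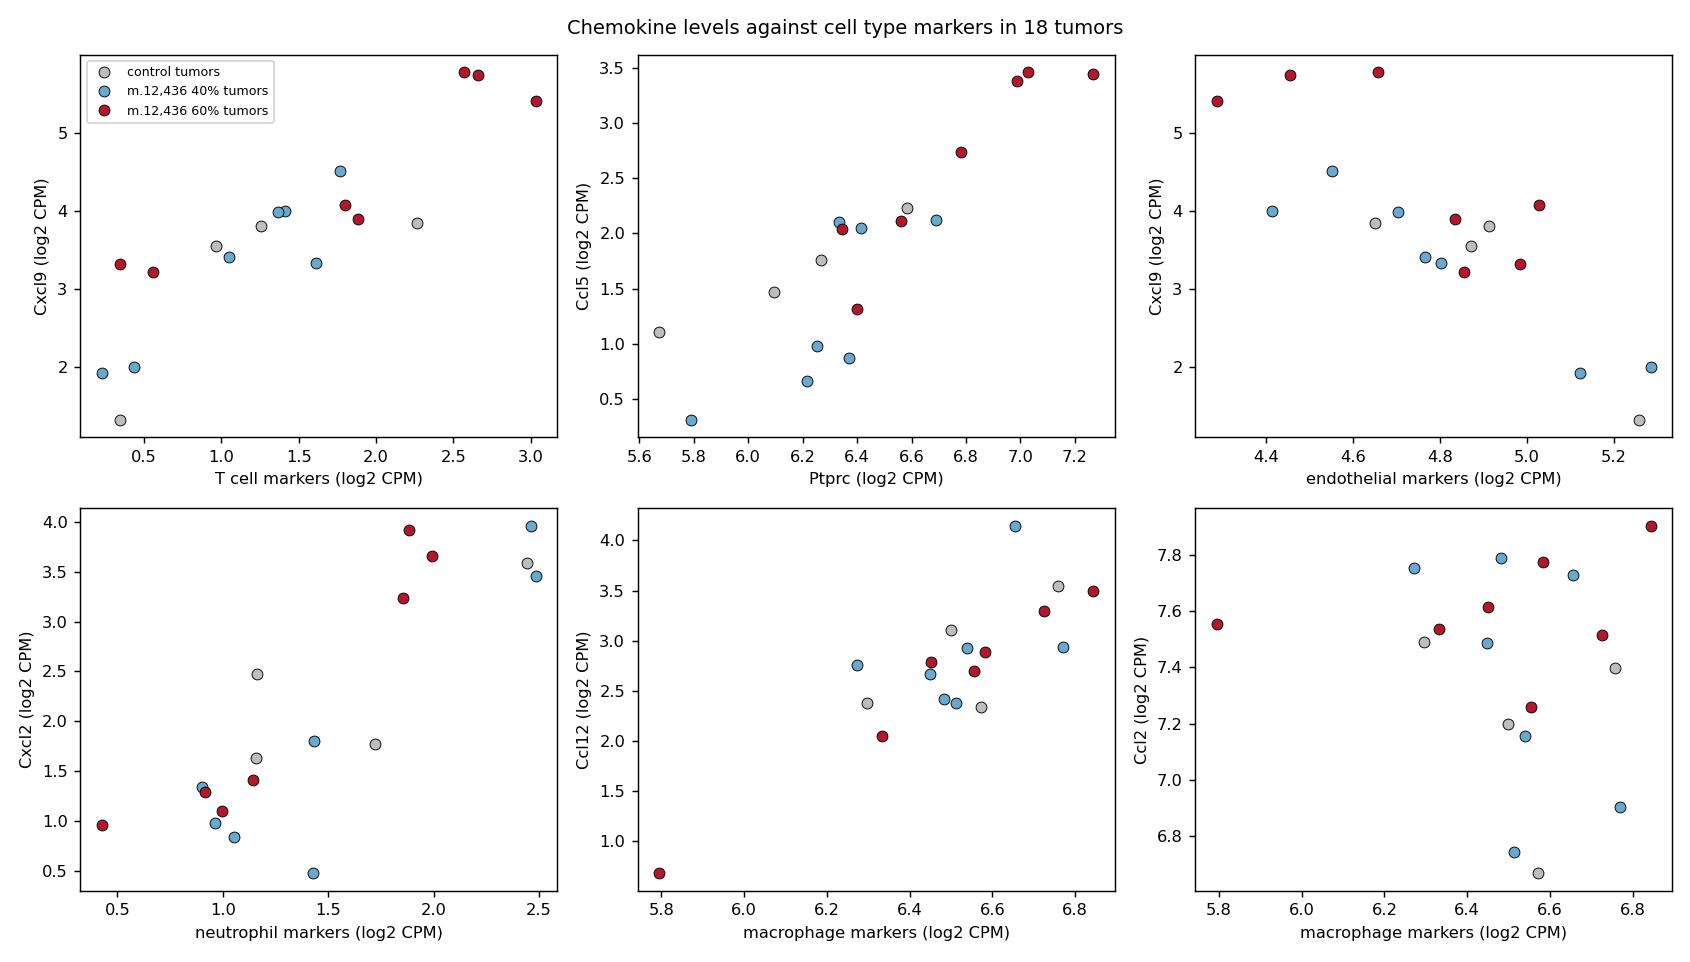
Level of a chemokine (log2 CPM) against that of a marker list (mean log2 CPM of the genes tested) in 18 tumors, colored by group, for 6 pairs: Cxcl9 and T cell markers, Ccl5 and Ptprc, Cxcl9 and endothelial markers, Cxcl2 and neutrophil markers, Ccl12 and macrophage markers, and Ccl2 and macrophage markers. Each point is 1 tumor. Cxcl9 climbs with the T cell markers and descends with the endothelial markers, whereas Ccl2 shows no slope against the macrophage markers (r = -0.08).

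The log2 fold changes of the leukocyte and endothelial markers are given beside these relations, and 0 of those markers were called in 60% against control tumors. In 60% against control tumors the T cell markers were positive in 9 of 9 (median log2 fold change 0.76), the NK cell markers in 6 of 6 (median 0.66), the monocyte markers in 5 of 6 (median 0.47) and the macrophage markers in 7 of 10 (median 0.13). The 5 neutrophil markers and the 5 endothelial markers tested were negative in 5 of 5 each, with medians of -0.19 and -0.17. Against 40% tumors, where Ccl5 was called, 0 of these markers were called. The T cell markers were positive there in 9 of 9 (median 0.88) and the NK cell markers in 6 of 6 (median 0.45). The monocyte markers were positive in 5 of 6 (median 0.31) and the macrophage markers in 6 of 10 (median 0.13). The neutrophil and endothelial markers were negative in 4 of 5 each, with medians of -0.26 and -0.047. Ptprc was at 112 ± 26.9 CPM at 60% and at 73.0 ± 18.6 CPM in control tumors (log2 fold change 0.61, SE 0.19, adjusted p = 0.135). With the Ptprc level as a covariate the log2 fold change of 60% against control was -0.51 for Cxcl9, -0.04 for Cxcl10 and -0.17 for Ccl5. Under the same covariate it was 0.44 for Ccl2 and 0.24 for Ccl7, close to the values without it. With the macrophage marker level as a covariate the first 3 stayed at 1.41, 1.10 and 1.12.

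The tumors also differed in skeletal muscle transcripts. The mean level of 5 muscle markers was between 2.50 and 4.99 on the log2 scale in 12 tumors, 2 of 4 control tumors, 7 of 7 at 40% and 3 of 7 at 60%, and between -2.46 and -2.10 in the other 6. With that level as a covariate, an alternative chosen after seeing the data, Ccl5 remained called between 40% and 60% (log2 fold change 1.60, adjusted p = 0.0661).

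The genes closest to each chemokine over the 18 tumors, by the same r among all genes tested and given as a description with no p, differed between the pairs. For Cxcl9 they were Gbp6 and Gbp2 at 0.97 and Gbp4 at 0.95, guanylate-binding proteins that interferon-gamma induces. For Cxcl10 they were Bst2 and Ifit3 at 0.96 and Isg15 at 0.95, which type I interferon induces. For Ccl5 they were Ctss, Tapbp and Cd96 at 0.92, the first 2 of which act in antigen presentation and the last of which is a receptor of T and NK cells. The 2 CXCR3 ligands were correlated with each other at r = 0.58, with 0.25 within the 40% tumors and 0.90 within the 60% tumors.

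For Cxcl1 the closest genes were Lif at 0.95, Ppp1r3b at 0.94 and Csf3 at 0.93, and for Cxcl2 they were Cxcl3 and Nos2 at 0.93 and G0s2 at 0.92. Cxcl3 is a close paralog of Cxcl2, and how reads shared by such genes were counted is not given in the sources used here. Lif and Csf3 encode cytokines, and Csf3 is the granulocyte growth factor. For Ccl3 the closest were Lox at 0.88, Gm8210 at 0.87 and Il1rn at 0.85, and for Ccl4 Il1rn at 0.91, Ptx3 at 0.86 and Csrnp1 at 0.85. Il1rn, the interleukin-1 receptor antagonist, was among the closest 3 of both Ccl3 and Ccl4.

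For Ccl12 the closest were Dkc1 at 0.93, Fkbp11 at 0.91 and Snrpa1 at 0.90. For Ccl2 they were St13 at 0.91, Spidr and Ywhag at 0.86, and for Ccl7 Golph3 and Cmc1 at 0.83 and Rgs17 at 0.82.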

How the data were processed

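Total RNA of 18 tumor pieces and 8 cultures was sequenced by a service provider. The authors used STAR for alignment (GRCm39) and featureCounts for counting per gene, and the deposited matrix holds raw counts, not normalized, of 56748 genes. Of its 47 columns, 21 were not used because their names did not match a single sample's labels. Columns of the m.12,436 tumors carry a level (low, high) and a number but not the mutation, and were matched through the study's own use of those words and because only these groups reach number 7. The m.11,944 cells were matched through a number that the study gives to that line. These matches were not checked against the edited bases.

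Counts were tested with edgeR 4.0.16 (R 4.3.3; filterByExpr, trimmed mean of M-values, robust quasi-likelihood fit, two-sided) and Benjamini-Hochberg adjustment over all genes tested. The 18 tumors shared 1 fit, the cultures had another, and control tumors and control cells had their own. Alternatives were limma-voom (limma 3.58.1), DESeq2 1.42.0, DESeq2's size factors, other filters on low counts, an adjusted p of 0.05, a replicate block, only the 2 groups compared, covariates and leaving out each sample. Correlations used log2 CPM with a prior count of 2. The fewest genes by which 2 samples of a group differed was 19558, so each was counted as its own sample. Same-numbered cultures correlated in their deviations from group means (mean r = 0.796 over 4 pairs, and -0.264 for unequal numbers). As every pair was over 0.1, the numbers were taken to pair the cultures. The procedure was checked on simulated data.

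The 10 genes and the lists were chosen with earlier results of these data known. From each list the text names at most 4 genes past the threshold, or the 2 with the smallest p where none passed, and for each chemokine the 3 genes with the highest r. Results of the chemokine receptor list are not reported here.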

Additional observations from a re-analysis of the deposited data

Results flagged for a closer look

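Of 38 groups of values looked at (a chemokine in a group of 4 or 7 samples), 3 held a sample that stood apart from the rest by Dixon's criterion at the 95% level, where chance gives about 1 in 20. Cxcl1 was at 55.6 CPM in m.12,436 60% tumor replicate 2, with the next tumor at 26.7 CPM. Cxcl1 was also at 64.5 CPM in m.12,436 40% tumor replicate 3, with the next at 21.8 CPM. Ccl12 was at 17.6 CPM in m.12,436 40% tumor replicate 2, with the next at 7.55 CPM. The part of sampling site or tissue mixture in these 3 values was not tested.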

How the results depend on the processing

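Calls among the 10 genes depended on the processing at few points. In 60% against control tumors the count of called genes went from 0 to 1 with DESeq2 (Ccl5) and with only the 2 groups compared (Ccl7). In 60% against 40% tumors it went from 1 to 0 with no filter on low counts, an adjusted p of 0.05, the replicate block, only the 2 groups compared or Ptprc as covariate, and ranged from 0 to 2 when each sample was left out. In cultures the block raised it from 0 to 1 (Cxcl1). At least 10 counts in every sample left 3 genes called in control tumors against control cells. Tumors with equal numbers did not deviate together (r -0.346 to 0.159), so the block there is only a number. Outside fits that leave out a sample, 387 log2 fold changes kept their side and direction and 16 reversed, with causes not tested. For 60% against control these were Cxcl2 at -0.20 with limma-voom, and Cxcl9 at -0.51, Cxcl10 at -0.036, Ccl5 at -0.17 and Ccl4 at -0.035 with Ptprc as covariate. For 40% against control they were Cxcl1 at -0.26 with limma-voom, Ccl4 at 0.20 and Cxcl2 at 0.088 with the block, Cxcl9 at -0.26 and Cxcl2 at 0.011 with Ptprc, and Cxcl9 at -0.14, Ccl12 at -0.045 and Cxcl2 at 0.13 with the muscle markers. For 60% against 40% they were Cxcl9 at -0.25 and Cxcl10 at -0.13 with Ptprc and Cxcl1 at -0.14 with the muscle markers. Leaving out 1 sample turned the sign of uncalled values only, with ranges for 60% against control of -0.33 to 0.13 (Ccl12), -0.074 to 0.76 (Cxcl1) and -0.22 to 0.75 (Cxcl2). For 60% against 40% they were -0.41 to 0.073 (Ccl12), -0.13 to 1.12 (Cxcl1) and -0.062 to 0.84 (Cxcl2). For 40% against control they were -0.24 to 0.37 (Ccl12), -0.29 to 0.16 (Ccl4), -0.40 to 0.013 (Ccl5), -0.75 to 0.47 (Cxcl1), -0.69 to 0.46 (Cxcl2) and -0.17 to 0.36 (Cxcl9), and in cultures -0.26 to 0.63 (Ccl2) and -0.13 to 0.45 (Ccl7). Over all genes the calls of 60% against control went from 374 to 1056 with DESeq2, 150 at 0.05, 178 with the block, 943 with 2 groups, 16 with Ptprc and 66 to 717 without 1 tumor. Those of 60% against 40% went from 293 to 744, 113, 178 with no filter, 35 with Ptprc and 108 to 452 without 1 tumor. Those of the trend went from 185 to 760, 12 at 0.05, 5 with Ptprc and 11 to 717 without 1 tumor. In 40% against control they went from 0 to 5 with DESeq2 and 0 to 3 without 1 tumor, and in cultures from 5 to 84 with DESeq2, 916 with the block, 0 with at least 10 counts and 0 without 1 culture. The counts of Ccl3 and Ccl4, 9 to 97 in a tumor, limit what can be seen of them.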
